A study of Rattus norvegicus with 458 samples.

Results

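Liver and kidney cortex were compared for their miRNAs in the same 10 rats. The series holds 215 small RNA libraries of 23 rat tissues, and the 20 libraries used here are the 10 labelled Liver and the 10 labelled Cortex, which the study's tissue list places in the kidney. All rats were naïve Sprague Dawley animals of 12 to 13 weeks, 5 male and 5 female, with no treatment in either organ. The differences below are thus not responses to a treatment. The libraries were made with the TruSeq small RNA protocol, which ligates adapters to both ends of short RNAs, and their total miRNA counts ran from 2803541 to 5570031 in liver and from 2243745 to 8943451 in cortex. RNA integrity (RIN, a scale on which intact RNA scores highest) was 7.93 ± 0.309 (SD, n = 10) in liver and 7.20 ± 0.508 (SD, n = 10) in cortex, higher in liver in 9 of 10 rats (exact two-sided sign-flip permutation test, p = 0.0156), and RNA had been extracted a second time for 5 liver and 2 cortex libraries. The part of RNA integrity and re-extraction in the results was not tested, and since liver and kidney were collected in different necropsy batches, collection batch and organ cannot be told apart. In bulk tissue, fewer cells of a type and less RNA per cell cannot be told apart either.

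A miRNA is a small RNA of about the length of the sequences shown here that guides silencing proteins to messenger RNAs, mostly through its seed, the bases 2 to 8 from its 5′ end. It is cut from a hairpin precursor, whose arms give a 5p and a 3p product, and precursors that lie close together are often transcribed as 1 cluster. miR-122 is the classic hepatocyte miRNA and a blood marker of liver injury, the miR-200 family marks epithelial cells such as those of kidney tubules, and the miR-10 and miR-196 genes lie among the Hox genes, which hold positional identity along the body axis. Levels are given as counts per 1000000 miRNA counts of a library (CPM), fold changes are liver over cortex on a log2 scale from edgeR's quasi-likelihood test with the rat as a block and a scaling factor per library, and a name was called where its Benjamini-Hochberg adjusted p was below 0.05. Because of that factor a fold change can differ a little from the ratio of CPM. Liver fold changes are positive and cortex ones negative throughout.

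The most counted sequence of miRNAs that the results below turn on is shown here, 5′ to 3′ with the seed in capitals, so that shared seeds can be seen. They are not a ranking by fold change. The letters are those of the deposited sequence table, which writes T for U. For liver these are both products of miR-122 and the 5p product of miR-802, with the abundant miR-31a-5p and the low miR-511-3p.
miR-122-5p: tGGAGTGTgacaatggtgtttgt
miR-122-3p: aACGCCATcatcacactaaac
miR-802-5p: tCAGTAACaaagattcatccttg
miR-31a-5p: aGGCAAGAtgctggcatagctg
miR-511-3p: aATGTGTAgcaaaagacaggat
For kidney cortex they are the Hox-linked miR-10 and miR-196 products, the epithelial miR-200b-3p, miR-200c-3p and miR-429, and the pair of miRNAs from the Calcr gene.
miR-10a-5p: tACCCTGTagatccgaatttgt
miR-10b-5p: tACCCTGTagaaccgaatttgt
miR-196a-5p: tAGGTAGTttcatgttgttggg
miR-196b-5p: tAGGTAGTttcctgttgttggg
miR-196c-5p: tAGGTAGTttcgtgttgttggg
miR-200b-3p: tAATACTGcctggtaatgatgac
miR-200c-3p: tAATACTGccgggtaatgatgga
miR-429: tAATACTGtctggtaatgccg
miR-653-5p: tTGAAACAttctctactgaacc
miR-489-3p: aTGACATCacatatatggcag
miR-10a-5p and miR-10b-5p shared 1 seed, the 3 miR-196 products another, and miR-200b-3p, miR-200c-3p and miR-429 the third. The RefSeq entry of miR-10b-5p starts at another base than the sequence that was counted most here, and so has another seed.

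Of 7534 names in the deposited table, 3848 had a count in the 20 libraries and 457 passed the filter on low counts. The names tested held at least 99.9% of the counts of each library, and 336 of them were single mature miRNAs rather than predicted, precursor or composite names. Liver and cortex differed for 65.9% of the names tested: 147 names (32.2%) were higher in liver and 154 (33.7%) were higher in cortex, and the libraries of the organs did not overlap for 183 (40.0%). Among the called names the fitted difference exceeded 4-fold for 100, 35 of them higher in liver and 65 higher in cortex. No test was made against 4-fold itself. The median log2 fold change of all names tested was 0.04. The median shift from this fit was 0.13 with library totals alone and -0.16 with at least 50 counts in at least 10 libraries. It was 0.34 in a fit over all 23 tissues without the rat block. Differences smaller than these rest on the processing. In the 4 rats with neither library re-extracted, 215 names were called, of which 201 were also called in all 10 rats.

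**Figure D1:**
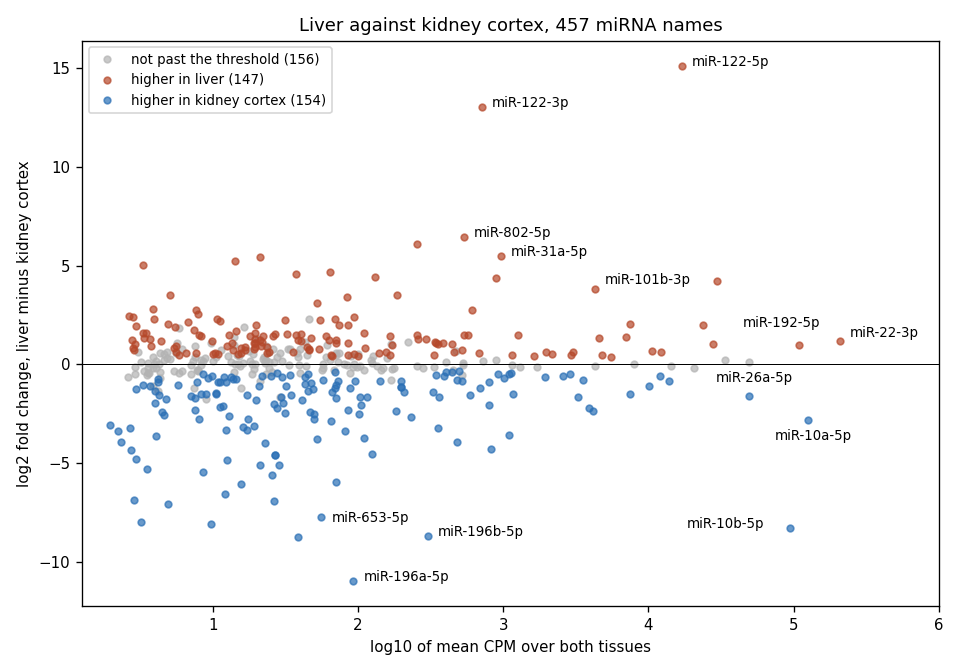
Each point is 1 of 457 miRNA names, with the log10 of its mean CPM over both tissues on the x axis and its log2 fold change, liver minus kidney cortex, on the y axis, coloured by call. miR-122-5p stands at 15.09 and miR-196a-5p at -10.95, and several of the most abundant miRNAs, among them miR-10b-5p at -8.31, differed as well.

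A few miRNAs made up most of each library. The 10 most abundant names held 73.1 to 78.0% of the counts in liver and 77.5 to 82.1% in cortex, and 7 of the 10 were the same names. miR-22-3p led in liver, with 280883 to 333941 CPM (median 290410.0), against 80173 to 160076 CPM (median 121878) in cortex. The libraries did not overlap, and the fold change was 1.19 (SE 0.12, edgeR adjusted p = 1.03e-06, higher in liver in 10 of 10 rats). miR-192-5p, which is known for its high level in liver, gut and kidney, had 121200.0 to 168642 CPM (median 147469) in liver and 50793 to 98824 CPM (median 65758) in cortex, again without overlap (log2 fold change 0.96, SE 0.12, edgeR adjusted p = 1.27e-05). Both are abundant in either organ and were higher in liver in all 10 rats.

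miR-10a-5p and miR-10b-5p led in cortex. The level of miR-10a-5p was 150970.0 to 285830.0 CPM (median 226323) in cortex and 24286 to 37827 CPM (median 33585) in liver (log2 fold change -2.84, SE 0.17, edgeR adjusted p = 6.43e-09). For miR-10b-5p the gap was far wider, with 158610.0 to 249936 CPM (median 191802) in cortex and 489 to 800.4 CPM (median 647) in liver (log2 fold change -8.31, SE 0.22, edgeR adjusted p = 1.45e-11). Neither overlapped between the organs. The products share their seed, and reads with it came mostly from miR-10a-5p in liver and from both miRNAs in cortex. miR-30a-5p, from a family that is abundant in kidney, was also higher in cortex, at 57975 to 85291 CPM (median 75481) against 24029.9 to 28320.3 CPM (median 26092) (log2 fold change -1.60, SE 0.10, edgeR adjusted p = 9.82e-09), as was miR-30e-5p (log2 fold change -0.85, SE 0.12, edgeR adjusted p = 3.42e-05).

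Other abundant names were higher in liver. A composite name of a predicted miRNA and miR-148a-3p, whose reads could not be assigned to a single precursor, had 45519 to 67014 CPM (median 55840.5) in liver and 2251 to 3778 CPM (median 2708) in cortex (log2 fold change 4.20, SE 0.17, edgeR adjusted p = 2e-10). miR-21-5p, known from inflammation and tissue repair, had 28915 to 47486 CPM (median 39310.4) in liver and 6926 to 11976 CPM (median 8509) in cortex (log2 fold change 1.99, SE 0.13, edgeR adjusted p = 2.64e-08). miR-378a-3p, which lies in a gene of energy metabolism, had 30472 to 46677 CPM (median 38846) against 11878 to 22187 CPM (median 17227) (log2 fold change 1.01, SE 0.13, edgeR adjusted p = 1.42e-05). The organs did not overlap for any of these 3 names. Some of the most abundant miRNAs did not pass the threshold: miR-26a-5p (log2 fold change 0.13, edgeR adjusted p = 0.238), miR-143-3p (0.21, 0.0511) and miR-27b-3p (-0.19, 0.112), with overlapping libraries in each case. Their calls changed with several settings. miR-26a-5p passed with TMM scaling and with library totals. miR-27b-3p passed with RLE scaling, DESeq2 and at least 50 counts in at least 10 libraries, among others, and miR-143-3p with each of the other scalings, DESeq2 and some rats left out.

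The 15 single miRNAs with the largest fold change toward liver had fold changes of 2.24 to 15.09 on the log2 scale. Libraries of the organs did not overlap for 14 of them, the exception being miR-1247-5p. Since they were picked for a large fold change in 1 direction in all 10 rats, nothing is read from that count against the 40.0% of all names tested. In 13 of the 15 the liver mean was the highest of all 23 tissues, the others being miR-511-3p, highest in testis, and miR-335, highest in cerebrum. miR-122-5p came first, with 25926 to 40363 CPM (median 32952) in liver and 0 to 2.46 CPM (median 0.974) in cortex, where 2 of 10 libraries held no count. In counts this was 1400563 over the 10 liver libraries against 49 over the 10 cortex libraries (log2 fold change 15.09, SE 0.46, edgeR adjusted p = 3.66e-11). The other arm, miR-122-3p, had 928 to 1937 CPM (median 1389) in liver and 7 counts in all cortex libraries together (log2 fold change 13.00, SE 0.43, edgeR adjusted p = 6.71e-11). Both come from the hairpin at chr18:61028817-61028901, plus strand (GRCr8).

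miR-802, which in liver is tied to glucose metabolism, was lower in cortex but not absent. Its 5p product had 761 to 1386 CPM (median 1055) in liver and 5.4 to 17.9 CPM (median 13) in cortex, where every library held counts (log2 fold change 6.47, SE 0.26, edgeR adjusted p = 2.11e-10). The 3p product followed, at 286 to 734 CPM (median 516) and 2.81 to 10.4 CPM (median 7.3) (log2 fold change 6.08, SE 0.33, edgeR adjusted p = 3.02e-09). Its hairpin is annotated at chr11:46112362-46112457, plus strand. The 4 products of the miR-122 and miR-802 hairpins summed to 28227 to 43987 CPM in liver and 8.23 to 31.1 CPM in cortex, so the markers given for liver were high in the libraries labelled Liver and near the lower end of the scale in those labelled Cortex.

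miR-31a followed at both arms. miR-31a-5p had 1373 to 2289 CPM (median 1870.4) in liver and 24.5 to 62.6 CPM (median 38.1) in cortex (log2 fold change 5.46, SE 0.21, edgeR adjusted p = 1.32e-10), and its mean in the libraries labelled Medulla was 198 ± 51.6 CPM (SD, n = 10). miR-31a-3p had 21 to 51.2 CPM (median 44.8) and 0.2 to 1.69 CPM (median 0.894) (log2 fold change 5.42, SE 0.26, edgeR adjusted p = 1e-09). miR-511-3p, whose hairpin lies within Mrc1, the macrophage mannose receptor gene (chr17:82187953-82188031, plus strand), was low in both organs but distinct, with 20.6 to 31.6 CPM (median 28.5) in liver and 0.2 to 1.68 CPM (median 0.633) in cortex (log2 fold change 5.23, SE 0.31, edgeR adjusted p = 6.43e-09). miR-335 had the widest spread of these names, 89.9 to 733 CPM (median 161) in liver, and 4.86 to 14.9 CPM (median 7.85) in cortex (log2 fold change 4.45, SE 0.35, edgeR adjusted p = 1.05e-07).

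miR-101b-3p was the most abundant of this group after miR-122-5p. It had 6846 to 9367 CPM (median 7768) in liver and 311 to 666 CPM (median 562) in cortex (log2 fold change 3.84, SE 0.14, edgeR adjusted p = 1.14e-10), and its hairpin lies within Rcl1 (chr1:236273922-236274018, plus strand). The related miR-101a-3p comes from another chromosome (chr5:121081683-121081757, minus strand) and went the other way, at 2508 ± 304 CPM in liver and 3290.2 ± 891 CPM in cortex (SD, n = 10 each), with overlapping libraries (log2 fold change -0.48, SE 0.17, edgeR adjusted p = 0.0214), a call that was lost with library totals, in female rats alone and in the 4 rats with neither library re-extracted. miR-193-3p (log2 fold change 3.53, SE 0.24, edgeR adjusted p = 2.68e-08), miR-378d (3.12), miR-195a-5p (2.73), miR-3559-5p (2.37) and miR-365-3p (2.31) did not overlap between the organs. Reads were named against rat entries before those of other species, so a name can hold end variants of another miRNA. The most counted miR-378d sequence is that of the composite name of miR-378a-3p and miR-378b with a further T. miR-378a-3p itself had a fold change of 1.01. miR-195a-5p shares its seed with miR-195-5p. Whether either name holds such variants was not tested. miR-1247-5p had 31.5 to 164 CPM (median 87.9) in liver and 2.67 to 56.4 CPM (median 14.1) in cortex, with a higher value in liver in 10 of 10 rats (log2 fold change 2.24, SE 0.39, edgeR adjusted p = 0.000186).

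**Figure D2:**
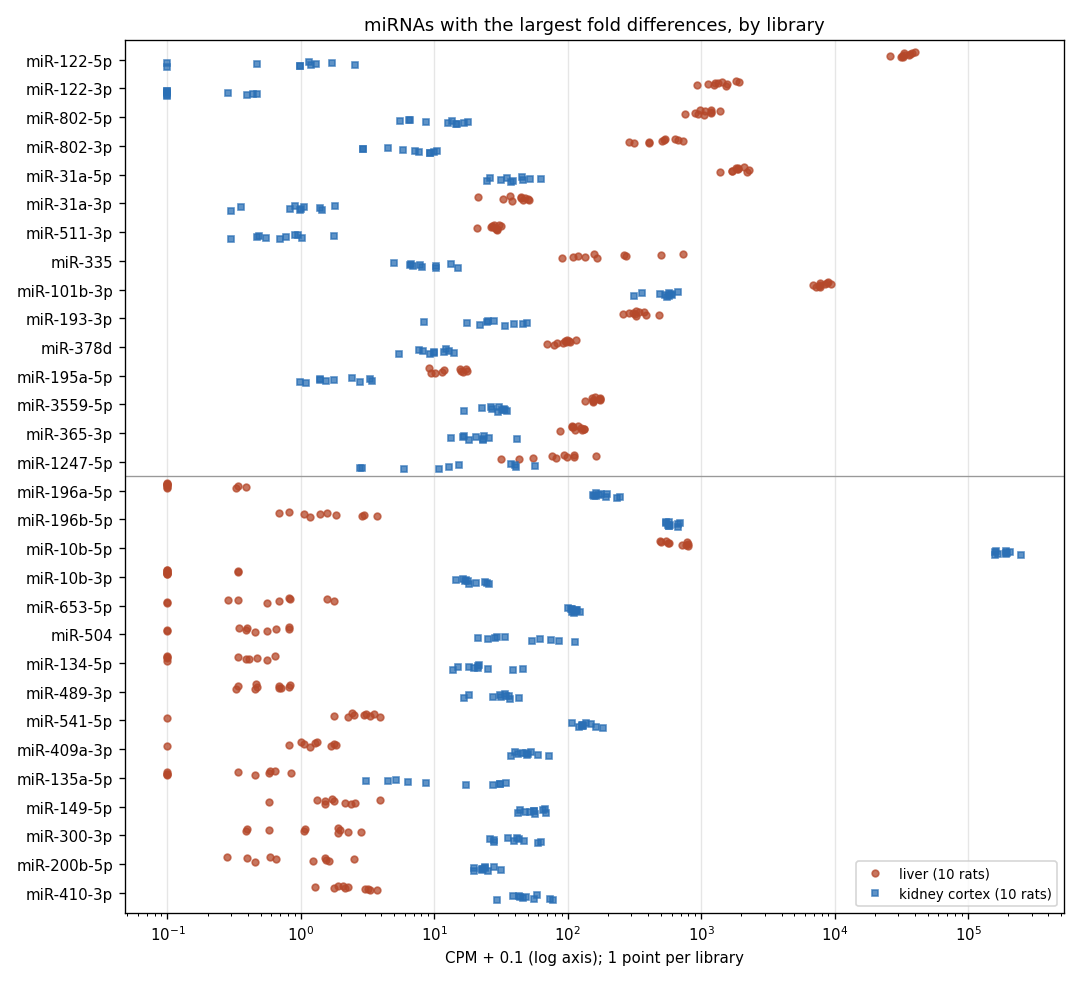
CPM on a log axis (0.1 was added so that libraries without a count can be drawn) of the 15 miRNAs with the largest fold change in each direction, 1 point per library, red circles for liver and blue squares for kidney cortex. The points of the organs are apart in every row but that of miR-1247-5p, where liver ran from 31.5 to 164 CPM and cortex from 2.67 to 56.4 CPM.

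Toward cortex the 15 largest fold changes were -10.95 to -4.57, and no pair of groups overlapped, for names picked in the same way (40.0% of all names tested). The cortex mean was the highest of the 23 tissues for 4 of the 15, and for 8 the liver mean was below the means of at least 21 other tissues. miR-196a-5p had 154 to 248 CPM (median 174) in cortex, 8879 counts in all, and 3 counts in 3 of the 10 liver libraries. The ratio of CPM over the summed libraries was 2431, with an exact 95% interval of 832 to 11789 for counting error only. miR-196b-5p had 547 to 697 CPM (median 578) in cortex and 0.591 to 3.62 CPM (median 1.38) in liver (log2 fold change -8.67, SE 0.33, edgeR adjusted p = 1.32e-10), and cortex held its highest mean of all tissues. miR-196c-5p was at 0 counts in every liver library, which allows up to 0.0737 CPM over the libraries together, and was at least 86.5-fold higher in cortex.

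miR-10b-3p, the other product of the miR-10b hairpin, had 14.4 to 25.4 CPM (median 18) in cortex and 2 counts in all liver libraries, a ratio of 409 with an exact 95% interval of 113 to 3385. The hairpin of miR-10b lies within the annotated span of Hoxd4 (chr3:80035859-80035967, plus strand). All 8 tested products of the miR-10 and miR-196 genes were higher in cortex (33.7% of all names tested were), with a median log2 fold change of -8.03, or -7.48 with miR-196c-5p at its bound. Several of these products passed the filter through cortex alone, so the filter partly set this count. Besides miR-196c-5p, without a liver count, they were miR-10b-3p (0 to 0.24 CPM in liver), miR-196b-5p (0.591 to 3.62 CPM) and miR-196a-5p (0 to 0.29 CPM). For miR-196b-5p the means of the libraries labelled Kidney and Medulla were 581 ± 83.9 and 504 ± 70.3 CPM (SD, n = 10 each).

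Next came a pair of miRNAs that share a host gene. miR-653-5p (chr4:32647398-32647494, minus strand) and miR-489-3p (chr4:32648039-32648144, minus strand) lie within Calcr, the calcitonin receptor gene, which kidney tubules are known to use. miR-653-5p had 101 to 124 CPM (median 111) in cortex and 0 to 1.68 CPM (median 0.517) in liver (log2 fold change -7.71, SE 0.41, edgeR adjusted p = 2.86e-09). miR-489-3p had 16.7 to 43.2 CPM (median 32.5) and 0.227 to 0.733 CPM (median 0.476) (log2 fold change -6.07, SE 0.22, edgeR adjusted p = 1.14e-10). Both had their highest mean of all 23 tissues in cortex. Messenger RNA was not measured, so the level of Calcr itself is unknown here.

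The remaining names came from several loci. miR-504, within Fgf13, had 21 to 114 CPM (median 43.6) in cortex and 0 to 0.718 CPM (median 0.326) in liver (log2 fold change -6.92, SE 0.47, edgeR adjusted p = 3.08e-08). miR-135a-5p was the most variable in cortex, with 2.96 to 34.1 CPM (median 12.9), and had 0 to 0.742 CPM (median 0.297) in liver (log2 fold change -5.46, SE 0.60, edgeR adjusted p = 3.51e-06). Its cortex libraries lay apart by sex, at 17.3 to 34.1 CPM in male and 2.96 to 8.49 CPM in female rats, and so did those of miR-504, at 53.6 to 114 CPM and 21 to 33.7 CPM. The pooled medians thus fall in the gap between the sexes. The liver-minus-cortex difference was not called between the sexes for either (edgeR adjusted p = 0.151 for miR-135a-5p and 0.172 for miR-504). The split was seen after the data were examined, and of these 15 names it also held for miR-10b-3p. miR-149-5p, within Gpc1, had 42.6 to 68.2 CPM (median 55.7) and 0.48 to 3.84 CPM (median 1.64) (log2 fold change -5.10, SE 0.27, edgeR adjusted p = 2.34e-09). miR-200b-5p, the minor arm of the miR-200b hairpin, had a fold change of -4.86, and miR-134-5p (-6.58), miR-541-5p (-5.95), miR-409a-3p (-5.62), miR-300-3p (-5.10) and miR-410-3p (-4.57) all came from 1 stretch of chromosome 6, described below.

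Lists of miRNAs that mark cell types or share a locus were then read against the calls. Of the miR-200 family with miR-141, which marks epithelium, 7 of 9 names passed the filter and all 7 were higher in cortex, with a median log2 fold change of -3.93. The filter partly set this count, since miR-200b-5p, at 0.18 to 2.4 CPM in liver, passed it through cortex alone. Of all single mature names tested, 41.1% were higher in cortex and 36.3% higher in liver, and the counts of the lists below are to be read against these shares. miR-200b-3p had 1507 to 2319.6 CPM (median 2020.0) in cortex and 91.2 to 335 CPM (median 188) in liver (log2 fold change -3.56, SE 0.28, edgeR adjusted p = 1.31e-07), and miR-429 had 1276 to 1876 CPM (median 1571) and 74.3 to 115 CPM (median 80) (log2 fold change -4.27, SE 0.17, edgeR adjusted p = 1.99e-10). The whole list summed to 4079 to 5515 CPM in cortex and 279 to 628 CPM in liver, and no name of it was at 0 throughout in either organ. Epithelial miRNAs were thus present in liver, at a lower level.

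Blood cell markers went toward liver. All 5 tested names of miR-451, miR-144 and miR-486, which red blood cells hold in large amounts, were higher in liver (median log2 fold change 1.50), and their list summed to 926 to 1719 CPM in liver and 235 to 597 CPM in cortex. miR-451-5p had 609.8 to 1291 CPM (median 804) and 178 to 437 CPM (median 249.6) (log2 fold change 1.50, SE 0.17, edgeR adjusted p = 4.24e-06). All 5 tested names of the leukocyte list (miR-142, miR-150, miR-155 and miR-223) were higher in liver as well, with a median of 1.23 and sums of 2373 to 3459 CPM and 752 to 1270.1 CPM. miR-142-5p had 1541 to 2478 CPM (median 1892) in liver and 381 to 821 CPM (median 598) in cortex (log2 fold change 1.50, SE 0.16, edgeR adjusted p = 2.81e-06). miR-150-5p of the leukocyte list was not called in female rats alone or in the 4 rats with neither library re-extracted. How much blood remained in each organ was not measured, and its part in these or other liver results was not tested.

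The endothelial list, written as miR-126, had no name past the filter, because the table carries these reads as miR-126a. Under that name, chosen after the names were seen, both arms were higher in liver, miR-126a-5p at 13629.7 ± 1577 CPM against 7645 ± 776 CPM and miR-126a-3p at 3818 ± 333 CPM against 2275 ± 181 CPM (SD, n = 10 each). In the 4 rats with neither library re-extracted, miR-126a-3p was not called. Smooth muscle and fibroblast miRNAs (miR-143, miR-145, miR-199 and miR-214) split, with 2 of 7 higher in liver and 3 higher in cortex. Of miRNAs known from other tissues, few passed the filter. For the muscle list it was miR-499-5p, higher in cortex, and miR-133a-3p (not called, 9.99 to 1242 CPM in liver), for the neuron list miR-9a-5p, higher in cortex, and miR-128-3p (not called), and for the pancreas list miR-375-3p, higher in cortex.

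Groups named for their family or locus differed in how uniform they were. Against 36.3% of all single names, the miR-192, miR-194 and miR-215 group was higher in liver for 5 of 6 names (median 1.24), with miR-194-5p at 5603 to 7236 CPM (median 6766) in liver and 1638 to 3914 CPM (median 2439) in cortex (log2 fold change 1.32, SE 0.14, edgeR adjusted p = 3.01e-06). miR-33, which lies in Srebf2, a regulator of cholesterol synthesis, was higher in liver for both arms, at 0.56 and 1.72, the former (miR-33-5p) no longer called with no filter on low counts, in male rats alone, without rat 7 or in the 4 rats with neither library re-extracted. The miR-193 and miR-365 group was higher in liver for 3 of 4 names, miR-193b-3p being the exception. miR-378a was higher in liver for both arms, and miR-26 for 2 of 3 names. In the 4 rats with neither library re-extracted, miR-378a-5p and miR-26b-5p were not called. The miR-15, miR-16, miR-195 and miR-497 group was higher in liver for 5 of 8 names and higher in cortex for none, and miR-148 and miR-152 were higher in liver for 3 of 4.

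Counts toward cortex stand against 41.1% of all single names. The miR-183, miR-96 and miR-182 cluster was higher in cortex for all 3 tested names, with miR-182 at 3803 to 8285 CPM (median 6101) in cortex and 797 to 3185 CPM (median 1328) in liver (log2 fold change -2.20, SE 0.31, edgeR adjusted p = 3.03e-05). The miR-181 family was higher in cortex for 6 of 7 names (median -1.55) and miR-221 and miR-222 for 3 of 3. The miR-99, miR-100 and miR-125 group was higher in cortex for 6 of 10 names and in liver for 1, and miR-204 (the miR-204 and miR-211 list had 1 tested name) was higher in cortex. The miR-322 and miR-503 cluster was higher in cortex for 6 of 7 names and in liver for 1, miR-29 for 4 of 6 and 1, miR-130 and miR-301 for 2 of 3 and 1, miR-103 and miR-107 for 1 of 2 and none, and miR-23, miR-27 and miR-24 for 4 of 9 and none, the last a share near that of all names.

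Several families were mixed. The miR-30 family was higher in cortex for 7 of 11 names and in liver for 3, and its abundant member miR-30d-5p was not called (-0.11, edgeR adjusted p = 0.317). The let-7 family with miR-98 was higher in cortex for 7 of 16 names, a share near the 41.1% of all single names, and in liver for 2, the latter being among its most abundant members: let-7f-5p had 15264 ± 3742 CPM in liver and 8962 ± 1242 CPM in cortex, and let-7a-5p 5717 ± 861 CPM and 3798 ± 656 CPM (SD, n = 10 each). Neither of these passed in male rats alone or in the 4 rats with neither library re-extracted. The miR-17-92 cluster and its relatives were higher in liver for 9 of 16 names and in cortex for 4, with miR-92a-3p at 10168 to 15149 CPM (median 12019) in liver and 2343 to 3285 CPM (median 2648) in cortex (log2 fold change 2.03, SE 0.12, edgeR adjusted p = 1.04e-08). miR-101 had 1 of 3 names in each direction and miR-21 1 of 2 in liver, while none of 3 names of miR-34 and miR-449 and none of 2 of miR-146 was called.

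**Figure D3:**
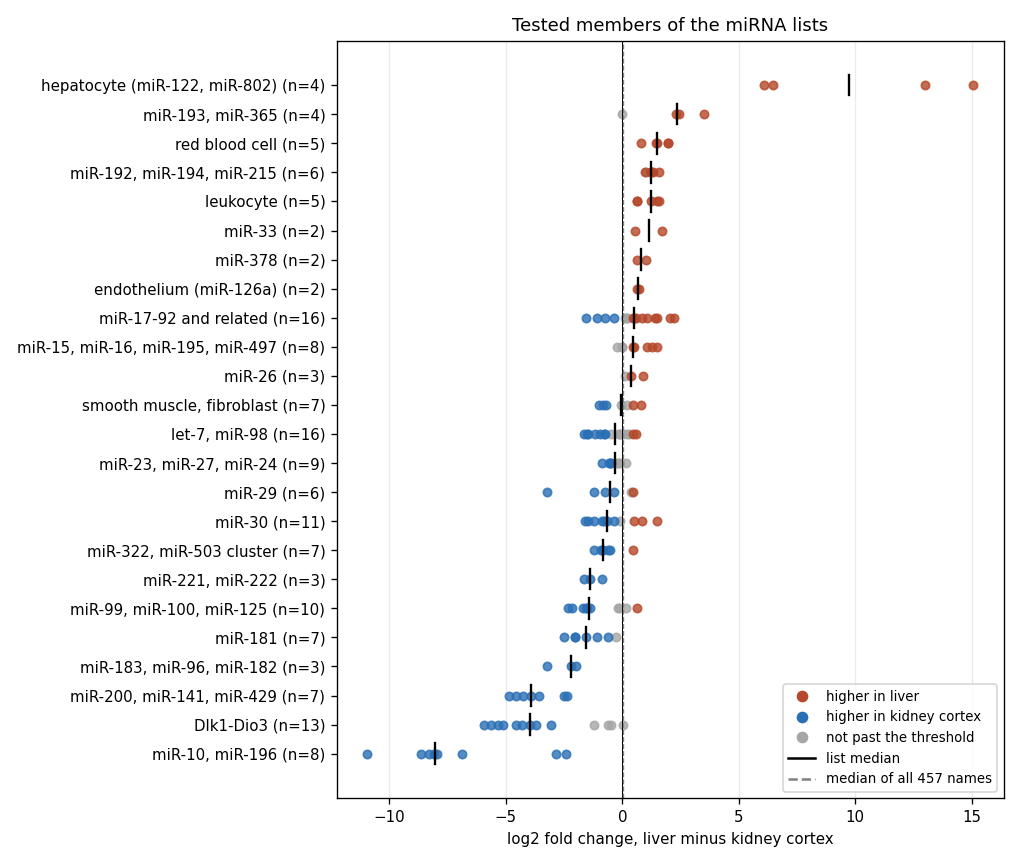
Log2 fold change, liver minus kidney cortex, of each tested member of the miRNA lists, 1 point per name coloured by call, with a black bar at the list's median and a dashed line at the median of all names tested (0.04). The miR-10 and miR-196 list lies lowest, with its median at -8.03 (miR-196c-5p, which has no liver count, is drawn at its fitted value), and the miR-122 and miR-802 list highest, with its median at 9.73.

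Calls were also read by position. Grouping tested miRNAs whose RefSeq hairpins lie within 10000 bases of each other (GRCr8) gave 26 clusters with 97 names. Calls went both ways in 3 clusters, toward liver alone in 6 and toward cortex alone in 14, and 3 had no call. All tested names of a cluster were higher in liver in 3 clusters and higher in cortex in 10. Many clusters hold 2 or 3 tested names, some of them the arms of 1 hairpin. In some, such as that of miR-653-5p and miR-489-3p, names passed the filter through cortex alone, which partly set these counts. The cluster counts here and below stand against 36.3% of all single names higher in liver and 41.1% higher in cortex. The largest cluster was the stretch chr6:134543445-134579838, part of the imprinted Dlk1-Dio3 region, in which all 10 tested names were higher in cortex, with log2 fold changes of -6.58 to -3.06. RefSeq has 31 hairpins there, of which 10 had a tested name. Some names passed the filter only through cortex, such as miR-134-5p with 0 to 0.539 CPM in liver. The count of 10 was thus partly set by the filter. miR-411-5p was its most abundant member, with 126 to 320.3 CPM (median 195.4) in cortex and 6.72 to 28.5 CPM (median 17.8) in liver (log2 fold change -3.72, SE 0.26, edgeR adjusted p = 3.29e-08). At the neighbouring stretch chr6:134298084-134331416 of the same region, none of 3 tested names was called, and miR-127-3p had 36.7 to 149.7 CPM (median 87.1) in liver and 22 to 221 CPM (median 74.6) in cortex (log2 fold change 0.01, SE 0.41, edgeR adjusted p = 0.985). Of the Dlk1-Dio3 list, which lacks miR-134-5p of the first stretch, 13 of 69 names with a count passed the filter and 9 were higher in cortex.

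Other clusters were read in the same way. At chr1:67350064-67350759 all 6 products of miR-99b, let-7e and miR-125a were higher in cortex, between -2.35 and -1.51, miR-99b-5p having 4885 to 8729 CPM (median 6848) in cortex and 1144 to 1917 CPM (median 1423) in liver. At chr10:63459397-63459640 the 3 products of miR-144 and miR-451 were higher in liver, and at chr10:55450171-55450581 the 3 of miR-497 and miR-195. The miR-17-92 cluster at chr15:98587848-98588632 was higher in liver for 4 of 5 names. In the X-linked miR-322 and miR-503 cluster (chrX:137720933-137726241) miR-322-5p was higher in liver (0.47) and the other 6 tested names were higher in cortex. Products of 1 transcript share their source, so these counts are not independent of each other.

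Names with a shared seed were grouped too. Of 16 seeds with at least 3 tested names, calls went both ways for 7, toward liver alone for 2, toward cortex alone for 6, and 1 had no call. These counts stand against 36.3% of all single names higher in liver and 41.1% higher in cortex. The seed of miR-181 (ACATTCA) had 4 of 4 names higher in cortex, that of miR-200b, miR-200c and miR-429 (AATACTG) 3 of 3, and that of miR-196 (AGGTAGT) 3 of 3. The liver means of the miR-196 names summed to 1.79 CPM. They passed the filter through cortex alone, which partly set their count. The seed AGCAGCA, of miR-15, miR-16 and their relatives, had 5 of 7 higher in liver and none higher in cortex. The let-7 seed GAGGTAG had 3 of 10 higher in liver and 4 higher in cortex, both near the shares of all single names. This group includes let-7j, whose most counted sequence is that of let-7i-5p with AT at its end. The miR-30 seed GTAAACA had 1 of 5 higher in liver and 3 higher in cortex.

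The liver-minus-cortex difference was then compared between female and male rats, 5 of each. It differed for 4 of 457 names (0.875%), and 47 names had an unadjusted p below 0.05. miR-190b-5p had 44.3 to 96.6 CPM (median 63.8) in female and 11.8 to 24.7 CPM (median 12.3) in male liver, without overlap, and 7.2 to 14 CPM (median 9.26) in female and 8.03 to 15.2 CPM (median 12.4) in male cortex (female-minus-male difference 2.18, SE 0.44, edgeR adjusted p = 0.0405). miR-802-3p had 529 to 734 CPM (median 635) in female and 286 to 504 CPM (median 404) in male liver, and 2.81 to 7.02 CPM (median 4.43) and 7.58 to 10.4 CPM (median 9.22) in cortex (female-minus-male difference 1.67, SE 0.28, edgeR adjusted p = 0.0349). In liver the female values lay above the male ones for both of these miRNAs. The more abundant arm miR-802-5p was not among the called names. Its liver values overlapped, at 979 to 1386 CPM in female and 761 to 1193 CPM in male rats.

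miR-107-3p, which lies within Pank1, had 493 to 638 CPM (median 597) in female and 243 to 455 CPM (median 297) in male liver, and 320.4 to 554 CPM (median 487) and 456 to 898 CPM (median 712) in cortex (female-minus-male difference 1.34, SE 0.25, edgeR adjusted p = 0.0383). miR-200b-3p went the other way, with 91.2 to 153 CPM (median 115) in female and 224 to 335 CPM (median 309.8) in male liver and overlapping cortex values of 1507 to 2319.6 CPM (median 2164) and 1557 to 2275 CPM (median 1991) (female-minus-male difference -1.50, SE 0.29, edgeR adjusted p = 0.0383). These calls rest on few rats. With 1 rat left out at a time the count of calls was 0 to 10, and it was 0 in edgeR without rat 2, 3, 4, 9 or 10 (37 to 59 at an unadjusted p below 0.05), 1 without rat 11, 2 without rat 7 and 10 without rat 6. RNA had been extracted a second time for 4 of 5 female and 1 of 5 male liver libraries, and the part of that step in these differences was not tested. The 4 rats with neither library re-extracted were rats 2, 3 and 5, which are male, and rat 9, the only female. With that split the sex difference cannot be judged in them.

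The ratio of the arms of a hairpin was compared within each library, as log2 of the 5p over the 3p count with 0.5 added to each, which no scaling between libraries can change. Of 70 hairpins with at least 20 counts per library on average for each arm, the ratio differed between the organs for 32 (45.7%, exact two-sided sign-flip permutation test over 10 rats, Benjamini-Hochberg adjusted), 18 toward 5p in liver and 14 toward 3p. The leading arm was the same in both organs for 67 hairpins. The called difference exceeded 1 on the log2 scale for 11. Some hairpins passed that minimum only through the organ where they are high. With a mean of at least 20 counts per arm in each organ, a filter chosen after the data were seen, 26 of 55 hairpins were called, 6 of them with a difference above 1, and miR-122, miR-10b, miR-200b, miR-1839 and miR-33 were left out.

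Of the called hairpins, miR-345 and miR-423 had mean ratios of opposite sign in the organs. For miR-345 the ratio was 0.44 to 1.31 in liver and -1.73 to -0.38 in cortex, 5p leading in every liver library and 3p in every cortex library (mean difference 1.68 ± 0.63 (SD, n = 10 rats), exact adjusted p = 0.00651). For miR-423 the ratio was -0.48 to 0.36 in liver, on both sides of 0 with no arm clearly leading, and -1.69 to -0.32 in cortex (mean difference 0.97 ± 0.26 (SD, n = 10 rats), exact adjusted p = 0.00651). For miR-21, whose 5p product was higher in liver, the ratio was 7.35 to 8.12 in liver and 5.69 to 6.43 in cortex (mean difference 1.66 ± 0.43 (SD, n = 10 rats), exact adjusted p = 0.00651), and miR-21-3p was not called between the organs (0.34, edgeR adjusted p = 0.103), though it was with TMM scaling, library totals and DESeq2. The liver-to-cortex difference of miR-21 was thus larger for the 5p than for the 3p product.

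miR-322 (1.30) and miR-872 (1.22) also moved toward 5p in liver, and miR-191a (-1.09) toward 3p, in 10 of 10 rats each (exact adjusted p = 0.00651). The ratios of miR-1839 (1.22), miR-200b (-1.32) and miR-33 (-1.15) rest on few counts of 1 arm in 1 organ, on average 11.5 of miR-1839-3p and 3.9 of miR-200b-5p per liver library and 15.4 of miR-33-3p per cortex library. With 5 added to the counts in place of 0.5, miR-200b was not called. The values of miR-122 (2.76) and miR-10b (-1.22) rest on 7 cortex counts and 2 liver counts of the 3p product, and depend on the number added. For the most abundant hairpins there was little change: the ratio of miR-22 differed by 0.03 and that of miR-192 by -0.27, neither of them called.

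**Figure D4:**
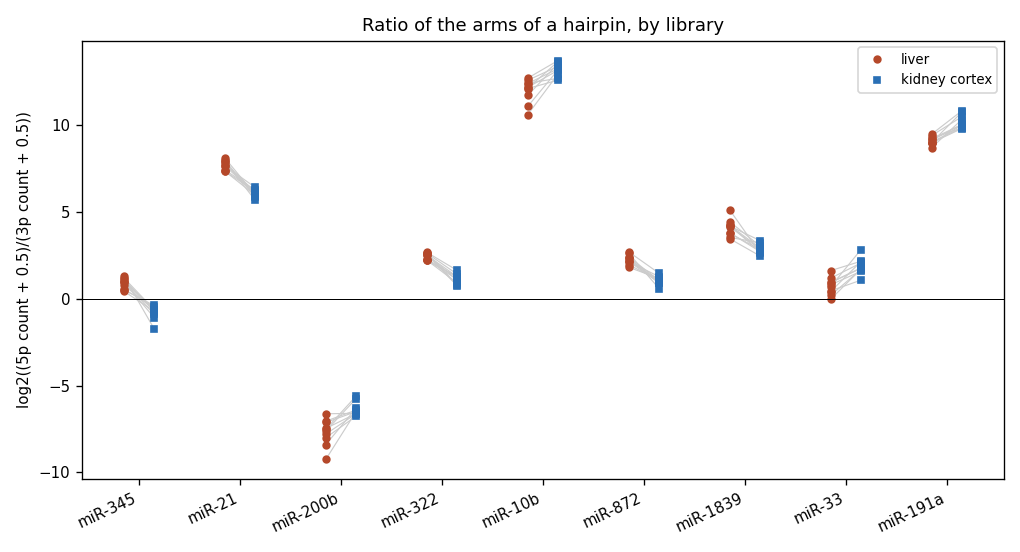
Log2 ratio of 5p to 3p counts (0.5 added to each) by library for 9 of the called hairpins with the largest differences, red circles for liver, blue squares for kidney cortex, with a grey line joining the organs of each rat. A ratio above 0 means that the 5p arm led, as for miR-345 in liver (0.44 to 1.31) but not in cortex (-1.73 to -0.38), while miR-10b, miR-200b, miR-1839 and miR-33 had a mean below 20 counts for 1 arm in 1 organ.

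A miRNA name covers several sequences, isomiRs, that differ at their ends, and the 97 names with at least 1000 counts per library on average allowed their makeup to be compared. The percentage on the most counted sequence differed for 59 names (60.8%), 20 higher in liver and 39 higher in cortex. The percentage that started at another base differed for 43 (44.3%), 14 higher in liver and 29 higher in cortex. Mean length differed for 80 (82.5%), 71 of them longer in liver and 9 longer in cortex. In the 4 rats with neither library re-extracted, which are among the 10, the difference had the called direction in each rat for 47 of the 59, 38 of the 43 and 69 of the 80 names. With at least 100 counts in every library, a filter added after the data were seen, 56, 41 and 77 of 93 names differed.

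The sequence with the highest mean share was a different one in each organ for 9 names. By library, the liver sequence lay above the cortex sequence in all liver and no cortex libraries for miR-101a-3p, miR-107-3p, miR-203a-3p and miR-21-5p. For miR-101b-3p it also lay above in 2 cortex libraries, and for miR-200b-3p, miR-195-5p and miR-130a-3p it led in only 5, 7 and 8 of the 10 liver libraries. For miR-195-5p and miR-130a-3p it also led in 1 cortex library each. For miR-182 it led in 9 liver libraries and 1 cortex library, but its share was higher in liver in only 4 of 10 rats. For 3 of the 9 the cortex sequence starts 1 base upstream of the liver sequence, which moves the seed, and for miR-21-5p and miR-107-3p the organs differ at the 3′ end alone. These are shown with the seed in capitals.
miR-101a-3p, liver: tACAGTACtgtgataactgaat
miR-101a-3p, cortex: gTACAGTActgtgataactga
miR-101b-3p, liver: tACAGTACtgtgatagctgaag
miR-101b-3p, cortex: gTACAGTActgtgatagctga
miR-203a-3p, liver: tGAAATGTttaggaccactagt
miR-203a-3p, cortex: gTGAAATGtttaggaccactag
miR-21-5p, liver: tAGCTTATcagactgatgttgact
miR-21-5p, cortex: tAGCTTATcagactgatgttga
miR-107-3p, liver: aGCAGCATtgtacagggctatct
miR-107-3p, cortex: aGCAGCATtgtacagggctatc
For miR-101a-3p, 31.8 to 37.3% (median 34.8%) in liver and 58.5 to 64.6% (median 60.4%) in cortex of the counts had the upstream start. For miR-101b-3p the share was 20.5 to 23.9% (median 22.1%) in liver and 42.9 to 51.6% (median 49%) in cortex, and for miR-203a-3p it was 46.2 to 55.5% (median 50.7%) in liver and 64.5 to 70.6% (median 66.5%) in cortex. In all 3 the organs did not overlap and the share was higher in cortex in 10 of 10 rats, and the percentage that started at another base than the most counted sequence was called for each (exact adjusted p = 0.00632). The upstream start was measured for these 3 names after their sequences were seen to differ. miR-101a-3p and miR-101b-3p come from hairpins on different chromosomes and shifted by a like amount, by means of -26.6 ± 2.89 and -26.3 ± 2.92 percentage points, liver minus cortex (SD, n = 10 rats), but sequences that fit both hairpins are not in these single names. The RefSeq entries of both miR-101 products start at the base that the liver sequence starts at, and that of miR-203a-3p at the base of the cortex sequence.

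For miR-21-5p the longer sequence held 44.7 to 52.4% of counts in liver and 20.3 to 26.4% in cortex (mean difference 25.6 ± 2.95 (SD, n = 10 rats), exact adjusted p = 0.00451). Its mean length was 23 to 23.2 bases in liver and 22.5 to 22.7 bases in cortex (mean difference 0.58 ± 0.0802 (SD, n = 10 rats), exact adjusted p = 0.00344). For miR-107-3p the share of its most counted sequence was 55.3 to 62.1% in liver and 23.7 to 32.6% in cortex (mean difference 28.3 ± 3.47 (SD, n = 10 rats), exact adjusted p = 0.00451). Both miRNAs carried longer 3′ ends in liver. Among the other names with the largest differences in the share of the top sequence, miR-203a-3p (26.5 to 35.6% in liver and 8.05 to 12.3% in cortex) and miR-429 (61.9 to 74.2% in liver and 49 to 60% in cortex) were higher in liver (exact adjusted p = 0.00451 each). Those higher in cortex were miR-191a-5p (59 to 66.3% in liver and 73.7 to 84.8% in cortex), miR-192-5p (48.8 to 55.7% in liver and 64.7 to 72.3% in cortex), miR-200b-3p (27 to 40.9% in liver and 50.1 to 55.9% in cortex), miR-19b-3p (41.7 to 53.6% in liver and 54.7 to 67.9% in cortex) and miR-93-5p (34.2 to 42.8% in liver and 45.4 to 57.5% in cortex) (exact adjusted p = 0.00451 each).

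Among names with at least 100 counts in every library, the largest difference in mean length was that of miR-93-5p (mean difference 0.603 ± 0.16 (SD, n = 10 rats), exact adjusted p = 0.00344). miR-192-5p was 21.6 to 21.7 bases in liver and 21.1 to 21.2 bases in cortex long on average (mean difference 0.451 ± 0.0694 (SD, n = 10 rats), exact adjusted p = 0.00344). The median length difference over all 97 names was 0.105 bases, so most were small, and it was 0.104 in the 4 rats with neither library re-extracted. Sequences with bases that do not match the hairpin were then set apart. For 66 names with a RefSeq hairpin, the median percentage of counts that did not match the hairpin letter for letter was 15% in liver and 11% in cortex, and it differed for 42 (63.6%), 41 of them higher in liver. For miR-192-5p it was 23 to 27.5% in liver and 7 to 11.9% in cortex, and for miR-107-3p 58.4 to 65.2% in liver and 25.5 to 35.5% in cortex (exact adjusted p = 0.00403 each). With matching sequences alone, mean length differed for 44 of 66 names (66.7%), 38 of them longer in liver. The length of miR-21-5p still differed (mean difference 0.613 ± 0.0778 (SD, n = 10 rats), exact adjusted p = 0.0043), while that of miR-182 had a difference of -0.0384 bases (exact adjusted p = 0.568). Both measures against the hairpin were chosen after the data were seen. Base changes, added bases and sequencing errors are not separated by them, and RNA integrity, which was higher in liver, was not tested for its part in them.

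**Figure D5:**
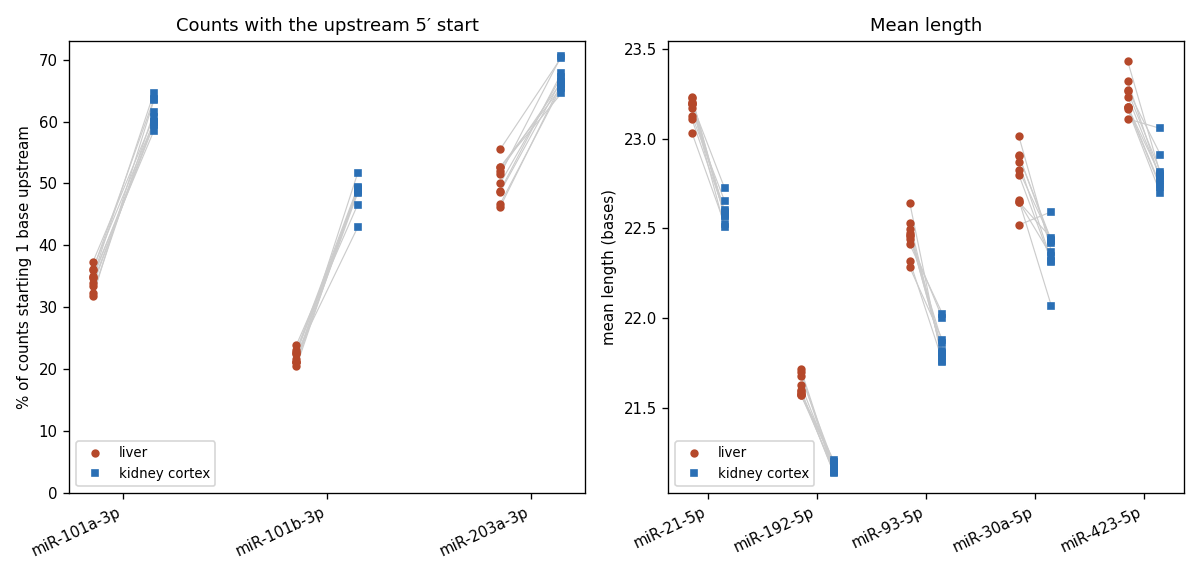
Left, the percentage of a miRNA's counts that start 1 base upstream of the liver sequence, and right, mean length in bases (axis not from 0), by library, red circles for liver, blue squares for kidney cortex, with a grey line joining the organs of each rat. The organs are apart for all names but miR-30a-5p, whose mean length was 22.5 to 23 bases in liver and 22.1 to 22.6 bases in cortex.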

How the data were processed

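Small RNA libraries (TruSeq, HiSeq 2000) of liver and kidney cortex from 10 rats were used, as labelled; the label Cortex was read as kidney cortex from the study's organ list. The deposited values are raw read counts per miRNA name and per isomiR sequence. The authors trimmed adapters with cutadapt 1.4.1 (per the submitters' processing notes), counted reads with miRDeep2 against miRBase rat, then mouse, human and worm entries, and gave a read that fits several precursors a composite name. Reads carry no molecular identifiers, so intervals cover counting error only.

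The 48 runs of these libraries (of 458 in the table) were summed per library, leaving out 4 runs that repeat a deposited lane. Totals were 2243745 to 8943451 counts. Names passing filterByExpr were fitted in edgeR 4.0.16 (R 4.3.3) with upper quartile scaling, a quasi-likelihood F test, the rat as a block and Benjamini-Hochberg adjustment over all names tested, with a threshold of 0.05. The sex comparison tested the interaction in a separate fit with the same scaling, filter and rat block. Arm ratios (0.5 added, mean of at least 20 counts per arm) and isomiR measures (mean of at least 1000 counts per name) were tested with exact two-sided sign flips over 10 rats (1024 arrangements, smallest p 0.00195). The effect of DESeq2 1.42.0 and of most other settings tried is given with the results or in the closing section. Each fit was tested on simulated data. Tables and plots were made with Python 3.11.15, pandas 2.3.3, scipy 1.17.1 and matplotlib 3.10.9.

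Pairing comes from the animal numbers in the labels, since both organs are from the same rats. Deviations from the organ means correlated little within a rat (median r -0.0426, range -0.473 to 0.229), and no library correlated best with its own rat's other organ.

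Sequences are those of the deposited isomiR table. Of 336 single names, 271 matched a RefSeq mature miRNA, 133 with identical letters and 249 with the same seed, and hairpin positions are from RefSeq (GRCr8), which was used for names and neighbourhood only and not for counting. Named miRNAs were the 10 most abundant in each organ, the 15 with the largest fold change in each direction among called single names that went 1 way in all 10 rats with at least 10 CPM in the higher organ, 2 to 4 of each list by mean level, every called sex difference, and the 10 largest called differences of each ratio or isomiR measure. The comparison, the lists and these rules were chosen with earlier results of these data known. The separate rats are the replicates, each organ with 1 library per rat.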

Additional observations from a re-analysis of the deposited data

Results flagged for a closer look

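Of 88 sets of 10 libraries examined (1 miRNA in 1 organ), 7 held a library far from the other 9 by Dixon's criterion, which flags about 1 set in 20 by chance. In liver, miR-22-3p was 333941 CPM in rat 4, against 280883 to 305620 CPM in the others. miR-26a-5p was 62158 CPM in liver of rat 9, against 48164 to 54844 CPM. miR-511-3p was low in liver of rat 5, at 20.6 CPM against 26.5 to 31.6 CPM, and high in cortex of rat 8, at 1.68 CPM against 0.200 to 0.916 CPM. The cortex library of rat 3 stood apart for miR-10b-5p, at 249936 CPM against 158610.0 to 206882 CPM, and for miR-27b-3p, at 15986 CPM against 19904 to 24367 CPM. miR-365-3p was 41.4 CPM in cortex of rat 4, against 13.3 to 25.5 CPM. For miR-22-3p, miR-10b-5p, miR-511-3p and miR-365-3p the organs did not overlap with these libraries included.

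The liver-minus-cortex log2 difference differed between female and male rats for miR-190b-5p (2.18 larger in females), miR-802-3p (1.67 larger), miR-107-3p (1.34 larger) and miR-200b-3p (-1.50, smaller in females), by the interaction test described above.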

How the results depend on the processing

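The count of names called between liver and cortex stayed within 1.5 times the main count under the other scalings, DESeq2 (159 higher in liver and 169 higher in cortex) and both filters, and ranged from 294 to 310 with 1 rat left out. It was 164 of 248 names tested with runs of flow cell D1GBMACXX alone, where fewer names passed the filter, and 147 when tested against a log2 fold change of 1. With the other flow cells it was 307, with all deposited runs 303, in male rats alone 249 and in female rats alone 274. Fitted over all 23 tissues without the rat block, 424 of 1641 names were called, 74.4% of the main calls among them. miR-192-5p, miR-30e-5p, miR-194-5p, miR-199a-3p, miR-23b-3p and miR-101a-3p were not called in that fit. Without the replicate block that pairs the organs of a rat, 322 names were called, 298 of them also called with it, and the arm ratio differed for 34 hairpins; no other result had an unpaired fit.

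The sex difference depended most on the setting. It was called for 8 names with TMM and with RLE scaling, 12 with library totals and 19 with DESeq2 and the replicate block. The count was 9 with no filter, 22 with at least 50 counts in at least 10 libraries and 21 without predicted and precursor names. On flow cell D1GBMACXX it was 1, and with 1 rat left out 0 to 10. The cause of this dependence was not tested. The sex difference cannot be judged in rats with neither library re-extracted, where rat 9 is the only female. The arm ratio differed for 20 of 33 hairpins with a minimum of 100 counts, 13 of 24 on flow cell D1GBMACXX and 26 to 31 with 1 rat left out. With a minimum of 5000 counts per name, the top sequence share, start and length differed for 36, 27 and 44 of 46 names, on flow cell D1GBMACXX for 23, 15 and 29 of 34, and with 1 rat left out for 56 to 62, 40 to 43 and 72 to 79. Fewer names or hairpins were tested at the higher minimum and on that flow cell. Mean length differed for 44 of 66 names with hairpin-matching sequences alone, where the length difference of miR-182 was -0.0384 bases. RIN differed by 0.525 in the 4 rats with neither library re-extracted (exact sign-flip p = 0.375, smallest possible 0.125).

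The single names whose fold change turned its sign were not called in the main comparison either. miR-30d-5p was 0.026 with library totals and 0.26 fitted over all 23 tissues, where miR-27b-3p was 0.17 and miR-127-3p was -0.00856. miR-26a-5p was -0.031 with at least 50 counts and -0.039 in females alone, where miR-107-3p was 0.082 and miR-127-3p was -0.42. miR-127-3p was also -0.15 with at least 50 counts, -0.55 on flow cell D1GBMACXX, -0.017 without predicted names, -0.25 without the block and -0.21 to 0.24 with 1 rat left out. Names with few counts in 1 organ have a ratio limited by counting there, as given for miR-196a-5p and miR-10b-3p.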
